A study of Homo sapiens with 32 samples.

Results

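The SLC25 family holds the carriers of the mitochondrial inner membrane, and the 38 genes described here are those named SLC25A and a number, with the citrate carrier SLC25A1 left out, whose mean over 32 libraries was at least 10 normalized counts. The tables hold 48 such names among 60107 genes, and 12406 genes passed the same minimum. Besides SLC25A1, which was set aside by name, 9 carrier genes stayed below it and were not tested. SLC25A21, SLC25A31 and SLC25A47 had no read in any library, SLC25A2, SLC25A18, SLC25A27, SLC25A48 and SLC25A52 had means below 1, and SLC25A34 had a mean of 5.26.

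The data are 3' mRNA sequencing of THP-1 cells, a human monocytic leukemia line, in 8 groups of 4 libraries. The WT, HA and SA lines were obtained by lentiviral delivery of the ACLY coding sequence, as wild type, H760A or S455A, into THP-1 cells whose own ACLY gene had been knocked out, and the KO line is the knockout without a construct encoding ACLY. All groups thus share the knockout of the endogenous gene, and whether KO cells went through transduction with another construct is not given in the sources used here. ACLY, ATP-citrate lyase, splits citrate exported from mitochondria into acetyl-CoA and oxaloacetate, H760A is the catalytically inactive form, and S455A lacks the serine that is phosphorylated. Each line was left unstimulated or given LPS, lipopolysaccharide of bacterial outer membranes, which activates monocytes, at 100 ng/ml for 3 hours by the labels (one paragraph of the study's methods gives 10 ng/ml). There is 1 line per genotype. The labels do not say whether its 4 libraries came from separate cultures, and the paper speaks of independent experiments for its data in general. The p-values thus measure the spread between libraries within groups, pooled over all lines and both treatments, which may be technical. A difference between lines cannot be told apart from any other property of the 1 line that carries each genotype.

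Carriers of this family are built from repeated pairs of membrane helices and exchange a metabolite, nucleotide or cofactor of the matrix for one of the intermembrane space. They tie oxidative phosphorylation, the malate-aspartate shuttle, amino acid breakdown, heme and iron-sulfur cluster synthesis and the supply of cofactors to the cytosol. The citrate that ACLY cleaves leaves mitochondria in exchange for malate, through the member that was set aside. Other carriers move malate, oxoglutarate, aspartate and phosphate across the inner membrane. The question was whether transcripts of these carriers differ with ACLY activity, with the S455A form or after LPS.

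The libraries had 6504099 to 14750815 reads on genes. Counts come from the 3' end of transcripts and do not grow with transcript length, so levels can be set side by side between genes, as far as each gene's end is read equally well. All values are reads divided by a size factor computed over all 32 libraries (normalized counts), and these intervals and tests cover the spread between libraries, since reads were not collapsed to molecules. ACLY itself had group means of 71.9 to 159 normalized counts, but reads at the 3' end of its transcript lie outside a construct that holds the coding sequence alone, so they check neither knockout nor transduction. The 10 monocytic markers were all detected, LYZ highest, and CD14 was low with 13.2 to 314 counts. T cell markers stayed at 0.837 counts or less in sum and erythroid markers at 1.7503 or less, with CD3E at 0. The B cell genes CD79A and MS4A1 stayed at 8.76 and 3.29 or less, and epithelial markers summed to 35.9 at most. Libraries of a group differed mainly along 1 axis, the first principal component of their deviations from the group means over 9439 genes that are not carriers, which held 67.1% of that spread. Replicate 3 of the WT and KO groups and replicate 1 of the HA and SA groups lay lowest on it, with and without LPS. Replicate 1 of SA after LPS lay farthest out, with 13460 genes detected, the fewest of all libraries (highest 18552). For some results that rest on these libraries, values without them are also given.

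The ADP/ATP carriers, which bring ADP into the matrix and ATP out, made up 41.2% of the summed carrier counts. SLC25A6 alone had a mean of 6474 counts over the 32 libraries, the highest of all members, SLC25A5 had 1765 and SLC25A4, the form of heart and skeletal muscle, had 35.1. Their coding sequences have the same length, 897 bases, and are alike. SLC25A5 and SLC25A6 were identical at 78.8% of positions, SLC25A4 and SLC25A5 at 77.3% and SLC25A4 and SLC25A6 at 77.9%. The stretch below shows this likeness for the genes that lead the family, around the codons of 3 arginines and 3 methionines that mark ADP/ATP carriers. It lies in exon 3 of each gene (GRCh38, GENCODE release 44) at chr4:185145842-185145898 on the plus strand for SLC25A4, chrX:119470456-119470512 on the plus strand for SLC25A5 and chrX:1387280-1387336 on the minus strand for SLC25A6, the part of X that is shared with Y. Capitals mark the 13 of 57 positions at which the genes differ, read 5' to 3' on the coding strand.
SLC25A4: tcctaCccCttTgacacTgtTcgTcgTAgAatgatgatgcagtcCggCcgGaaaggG
SLC25A5: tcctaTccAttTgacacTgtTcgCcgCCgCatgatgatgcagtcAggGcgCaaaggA
SLC25A6: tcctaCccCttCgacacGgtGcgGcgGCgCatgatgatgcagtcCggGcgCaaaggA
SLC25A5 and SLC25A6 differed at 8 positions of the stretch and SLC25A4 differed from each at 10. The 3' kit reads the ends of transcripts, which lie beyond the coding sequence, and the rows of SLC25A5 pseudogenes held no read in any library. How reads that fit several copies were counted is not given in the sources used here.

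Mean carrier levels ran from 6474 counts for SLC25A6 to 12.8 for SLC25A41. SLC25A3, which carries phosphate for ATP synthesis and also copper for cytochrome c oxidase, followed with 3207 counts, or 15.95% of the carrier sum, so that SLC25A6, SLC25A3 and SLC25A5 together made up 56.9%. Iron went with SLC25A37 (mitoferrin 1, 1219.5) over SLC25A28 (mitoferrin 2, 207), glutathione with SLC25A39 (1051) over SLC25A40 (124), and the dicarboxylates with the oxoglutarate-malate carrier SLC25A11 (608) over the malate-phosphate carrier SLC25A10 (249) and SLC25A35 (20.8). The aspartate-glutamate carriers were present as SLC25A13 (citrin, 159) and SLC25A12 (aralar, 70.1), with the glutamate carrier SLC25A22 at 121. The 4 carriers of ATP-magnesium and phosphate ran from SLC25A24 (548) through SLC25A23 (285) and SLC25A25 (78.4) to SLC25A41. Of the carriers of other amino acids, the branched-chain amino acid carrier SLC25A44 led with 691, before the basic amino acid carrier SLC25A29 (133), the glycine carrier SLC25A38 (91.96), needed for heme, and the ornithine carrier SLC25A15 (29.1). The 9 carriers of cofactors and nucleotides held 11.5% of the carrier sum, led by the folate carrier SLC25A32 (596). Next came SLC25A36 (333) and SLC25A33 (240.3) for pyrimidine nucleotides and SLC25A26 (257) for S-adenosylmethionine, followed by SLC25A17 of peroxisomes (144), SLC25A16 (90.4) and SLC25A42 (28.4) for coenzyme A and SLC25A51 (68.3) for NAD. The acylcarnitine carrier SLC25A20 had 103 counts, SLC25A46, which sits in the outer membrane and shapes mitochondria, had 233, and the UCP-like SLC25A14 and SLC25A30 had 119.6 and 22.1. The less studied SLC25A43, SLC25A45 and SLC25A53 had 68.3, 44.6 and 19.6. In order of mean, neighbours such as SLC25A11, SLC25A32 and SLC25A24 did not differ beyond their spread over libraries, which was 292 to 1243, 474 to 780.1 and 230.4 to 970.2.

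**Figure D1:**
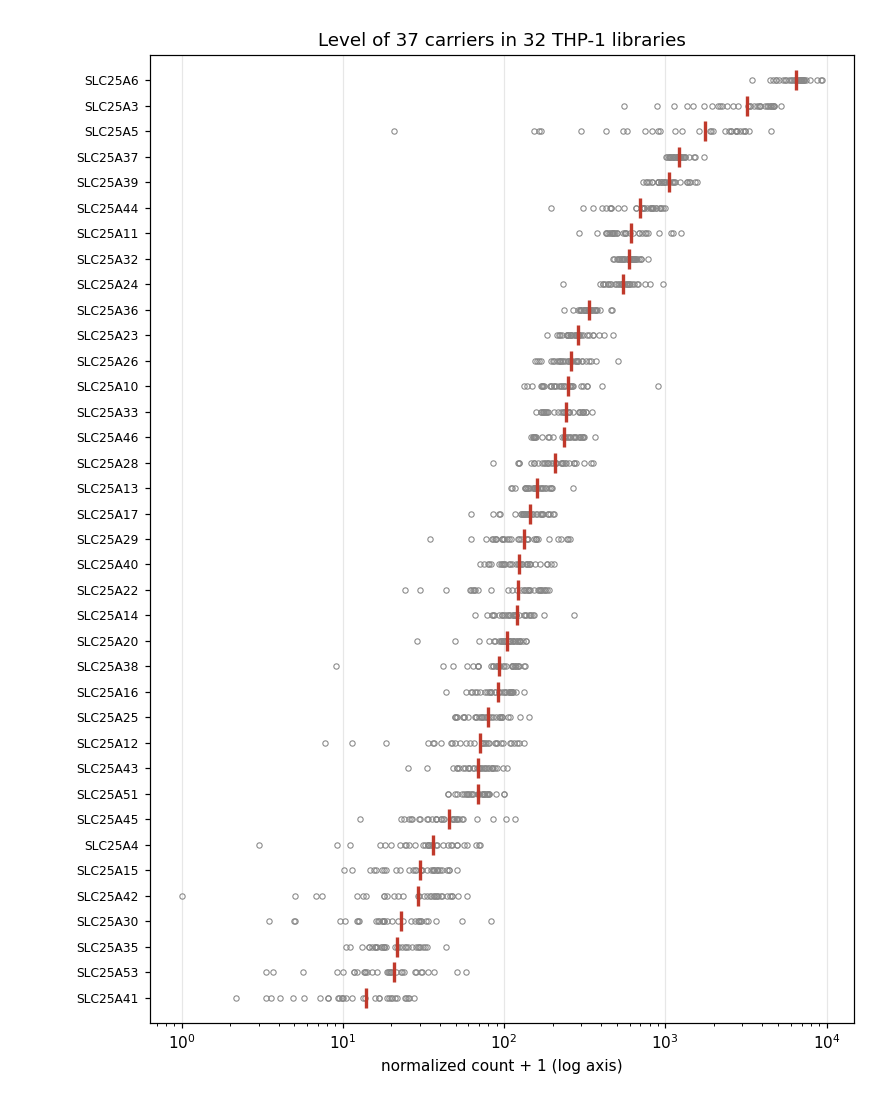
Level of 37 carriers. The x axis is the normalized count plus 1 on a log axis, each circle is 1 of 32 libraries and the red bar is the mean, SLC25A6 lies highest and SLC25A41 lowest, and SLC25A5 spreads from 19.7 to 4495 counts.

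Group means of a carrier were mostly close to each other, the highest over the lowest of the 8 group means having a median of 1.67 and staying under 2 for 26 of 38 carriers. The carrier sum per library was 22377 ± 962 counts (SD, n = 4) in WT, 19052 ± 1931 in KO, 18369 ± 1120 in HA and 20246 ± 1271 in SA without LPS, and 22402 ± 1072, 19329 ± 2551, 18905 ± 565 and 20204 ± 2373 after LPS. All HA libraries, at 17054 to 19675 without and 18123 to 19475 with LPS, had less than all WT libraries, at 21030 to 23184 and 21332 to 23565. This sum is carried by 3 genes and is given with no test. In bulk RNA, fewer cells of a state and less RNA per cell cannot be told apart.

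Each of the 38 carriers was compared in 17 ways in a limma fit over 12406 genes, with calls at an adjusted p (Benjamini-Hochberg over all genes tested) below 0.01. Differences are log2 fold changes of normalized counts after adding 1, and those of low genes are understated by that addition. In 16 of the 17 comparisons no carrier passed, and by limma voom on the reads none did either. Without a difference past the limit, a carrier is not shown to be equal between groups, and its interval is given instead.

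LPS for 3 hours moved no carrier past the limit. None of 38 passed in WT, where 0.250% of all genes tested were called, in KO (0.580%), in HA (0.403%), in SA (0.492%) or in the mean over the 4 lines (1.78%). Carriers with an unadjusted p below 0.05 numbered 0 in WT, 2 in KO, 2 in HA, 4 in SA and 3 in the mean. The median carrier difference over the 4 lines was -0.03 against -0.01 for all genes, and single values ran from -0.43 to 0.34. Their 95% intervals lay within 1 log2 unit of 0 for 37 carriers and within 0.5 for 23, and SLC25A5 was the carrier whose interval went beyond 1.

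In WT, HA and KO, the smallest p belonged to other carriers. SLC25A4 had it in WT, at -0.63 ± 0.57 (SE, 95% interval -1.80 to 0.53), and in HA, at 1.48 ± 0.57 (95% interval 0.32 to 2.65), with opposite signs and neither past the limit. SLC25A4 counts were 50.1, 36.8, 19.04 and 37.6 in WT and 31.4, 32.9, 8.21 and 24.6 in WT after LPS. In HA, SLC25A4 counts were 2.03, 21.6, 33.02 and 32.6 without and 66.1, 46.4, 32.7 and 43.7 with LPS, so the groups overlapped and the value of 2.03 in replicate 1 stood below the others. Over 8 fits that each left out 1 library, the SLC25A4 response in HA ran from 0.66 to 1.83, and none passed. The difference between the responses of HA and WT was 2.12 ± 0.80 for SLC25A4 (limma adjusted p = 1), and ran from 1.295 to 2.46 over 16 such fits. No carrier of 38 passed when the response to LPS was tested against that of WT. This held in HA and SA (0% of all genes in both) and in KO (0.00806%). Unadjusted, 1, 1 and 0 carriers had p below 0.05 in HA, SA and KO. In the KO line SLC25A25, a calcium-regulated ATP-magnesium and phosphate carrier, had the smallest p with -0.53 ± 0.22 (limma adjusted p = 0.696), and for the difference of the KO and WT responses it was SLC25A29 with -0.64 ± 0.44 (limma adjusted p = 1). SLC25A20 in WT was a carrier with a gap between treatments, at 100.2, 99.6, 109 and 86.6 without and 124, 123, 124 and 113 with LPS, where 2.60% of all genes had one. In HA 1 carrier had a gap (3.49% of genes), and none had one in KO (3.45% of genes) or SA (4.18%).

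The comparison of the lines without ACLY activity (KO and HA, 16 libraries) with the lines with it (WT and SA, 16 libraries), both treatments together, was the one in which carriers passed. These were 3 of 38, among them SLC25A25 and SLC25A29, both higher, where 14.6% of all genes were called, so the share of carriers was below that of genes at large. In all, 10 carriers had p below 0.05 unadjusted, voom also called 3, and 13 of the 38 differences were above 0 and 25 below, with a median of -0.07 against -0.01 for all genes. Intervals lay within 1 log2 unit of 0 for 33 carriers and within 0.5 for 17. The comparison sets 2 lines against 2 others, and its libraries are shared with the comparisons of single lines below. On the scale as deposited, where each line has its own size factors, 3 carriers passed as well (against 16.85% of all genes), among them SLC25A37 (-0.30) and SLC25A6 (-0.35) but neither SLC25A25 (0.37) nor SLC25A29 (0.46). The lines also differed in monocytic markers, of which LYZ (1.93) and CSF1R (0.85) rose and CD33 (-0.49) and ITGAM (-0.76) fell, 4 of 10. The sum of the 10 markers was 17625 to 33103 counts in KO and 16124 to 25072 in HA without LPS, above the 10546 to 13037 of WT and the 9657 to 12659 of SA, and after LPS 20333 to 38276 in KO and 15767 to 24297 in HA against 9069 to 12129.7 in WT and 7940 to 12865 in SA. That gap is LYZ. Without LYZ, the sum of the other markers in unstimulated libraries ran from 6505 to 7233 for WT, which overlapped KO (6159.7 to 7911), HA (5462 to 6512) and SA (6246 to 7031). After LPS it was lower for KO (4502 to 5244) and HA (4655 to 5359) than for WT (5549 to 6405), with SA between 5328 and 6027. The part of these marker differences in the carrier counts was not tested.

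**Figure D2:**
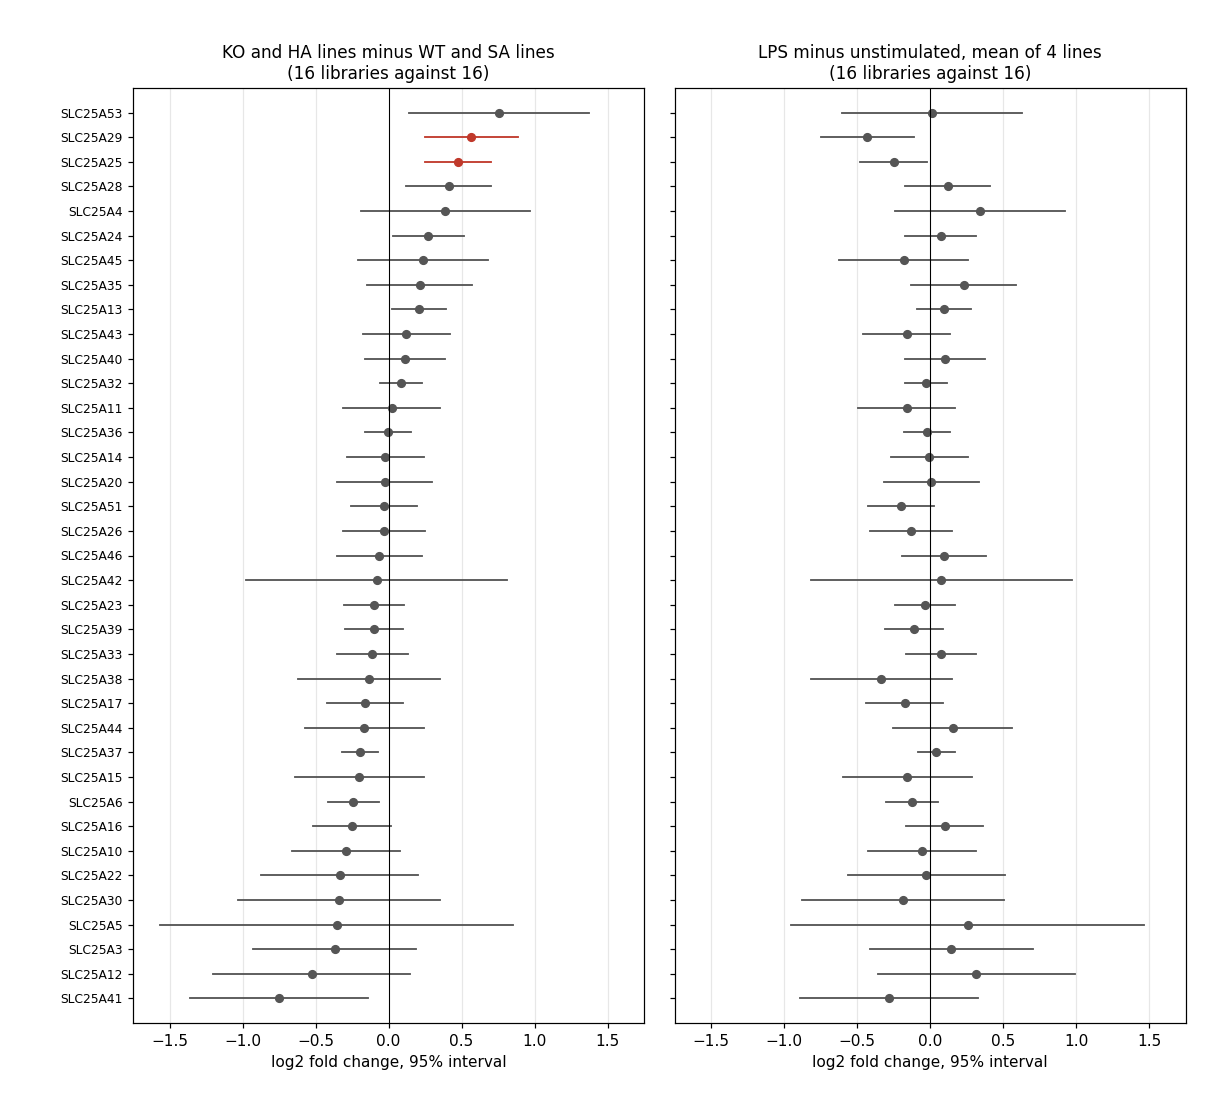
Log2 fold changes of 37 carriers with 95% intervals from limma. Left, KO and HA against WT and SA. Right, LPS against unstimulated over the 4 lines. Red marks an adjusted p below 0.01, reached on the left by SLC25A29 (0.57) and SLC25A25 (0.48) and by none on the right, while SLC25A5 has the widest interval on both sides.

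SLC25A25, which exchanges ATP-magnesium for phosphate and is regulated by calcium, lies at 128068201 to 128109245 of chromosome 9 on the plus strand (GRCh38). SLC25A25 counts without LPS were 84.5, 72.001, 79.5 and 58.6 in WT, 141, 81.5, 105 and 88.3 in KO, 125, 95.8, 109 and 93.5 in HA and 49.4, 75.9, 64.9 and 49.99 in SA. After LPS, SLC25A25 counts were 68.8, 65.9, 55.1 and 65.8 in WT, 48.6, 93.96, 55.6 and 95.5 in KO, 74.2, 92.01, 77.2 and 96.01 in HA and 54.4, 70.6, 71.99 and 48.7 in SA. Without LPS the HA libraries lay above all WT libraries, and after LPS again. KO libraries overlapped WT in both states, with 48.6 and 55.6 in replicates 1 and 3 after LPS against 94.0 and 95.5 in the others. The log2 fold change was 0.48 ± 0.11 (SE) for the lines without against those with activity (limma adjusted p = 2.1e-03). By line it was 0.47 ± 0.22 for KO and 0.52 ± 0.22 for HA against WT without LPS, and 0.14 ± 0.22 and 0.40 ± 0.22 after LPS, none of them past the limit. The last exon of SLC25A25 overlaps SLC25A25-AS1 on the other strand, which had a mean of 19.8 counts and a difference of -0.21 ± 0.28 (SE) in the same comparison. Whether the counting used strand is not given in the sources used here, so reads of both cannot be told apart.

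SLC25A29 carries arginine, lysine and other basic amino acids and lies at 100291116 to 100306547 of chromosome 14 on the minus strand (GRCh38). SLC25A29 counts without LPS were 109, 97.1, 158 and 88.4 in WT, 153, 104, 223 and 127 in KO, 245, 256, 137 and 188 in HA and 122, 140.2, 88.8 and 157 in SA. After LPS, SLC25A29 counts were 95.8, 98.8, 161 and 86.4 in WT, 61.7, 83.3, 121 and 106 in KO, 248, 156, 214 and 138 in HA and 33.6, 95.7, 76.6 and 83.8 in SA. HA had the highest counts in both states, although the lowest HA library of each state was below the highest WT values of 157.9 and 160.6. The log2 fold change of the lines without against those with activity was 0.57 ± 0.15 (SE, limma adjusted p = 7.4e-03). By line it was 0.86 ± 0.31 without and 0.77 ± 0.31 with LPS for HA against WT, while KO differed from WT by 0.40 ± 0.31 and -0.25 ± 0.31, with opposite signs. After LPS all KO libraries had less SLC25A29 than all HA libraries (5.09% of genes had such a gap), at -1.02 ± 0.31 and adjusted p = 0.193 in limma, the smallest p of a carrier in that comparison. SLC25A29 was lowest, at 33.6, in replicate 1 of SA after LPS, without which the difference was 0.49 (adjusted p = 7.5e-03). Over 32 fits that each left out 1 library, SLC25A29 passed in 16, with adjusted p from 3.8e-03 to 0.0145, and it did not pass on the scale as deposited (0.46, adjusted p = 0.026) or without a filter on low counts (adjusted p = 0.014).

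The 3 other carriers with adjusted p below 0.05 in this comparison were SLC25A37, SLC25A28 and SLC25A6, named for their values. SLC25A37 and SLC25A28 bring iron into the matrix and had differences of opposite sign, -0.19 ± 0.06 (SE, adjusted p = 0.0192) and 0.41 ± 0.14 (adjusted p = 0.0348 in limma). SLC25A37 counts without LPS were 1222, 1304, 1233 and 1137 in WT, 1108, 1026, 1073 and 1151 in KO, 1057, 1217, 1054 and 1221 in HA and 1397, 1295, 1183 and 1514 in SA. After LPS, SLC25A37 counts were 1240.5, 1184, 1525 and 1190.2 in WT, 1003, 1088, 1179 and 1209 in KO, 1325, 1122, 1255 and 1067 in HA and 1745, 1109.5, 1266 and 1324 in SA. SLC25A37 had the smallest spread of all carriers, with an SD of 0.15 log2 within groups. SLC25A28 counts without LPS were 160.3, 171, 152 and 186 in WT, 312, 279, 151 and 232 in KO, 121, 183, 225 and 238 in HA and 145, 179, 207 and 187 in SA. After LPS, SLC25A28 counts were 177, 208, 123 and 208 in WT, 355, 345, 241 and 269 in KO, 123, 269, 227 and 251 in HA and 84.5, 195, 201 and 229 in SA. After LPS the KO libraries of SLC25A28, 241.0 to 354.6, lay above all WT libraries, 123 to 208, and in the unstimulated state replicate 3 of KO, at 151, lay below all WT libraries. SLC25A28 follows the main axis of spread (r = 0.90), so leaving out the libraries lowest on it, replicate 3 of KO among them, narrows its spread. In such a fit without 8 libraries, chosen after seeing the data, the SLC25A28 difference was 0.44 and passed (adjusted p = 6.4e-05 in limma), as did 24.7% of all genes. KO against WT also passed, at 0.66 without LPS (adjusted p = 6.0e-03, 4.97% of genes) and 0.70 with LPS (adjusted p = 2.6e-03, 6.997%). With all libraries, KO against WT had adjusted p = 0.485 without and 0.123 with LPS in limma.

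**Figure D3:**
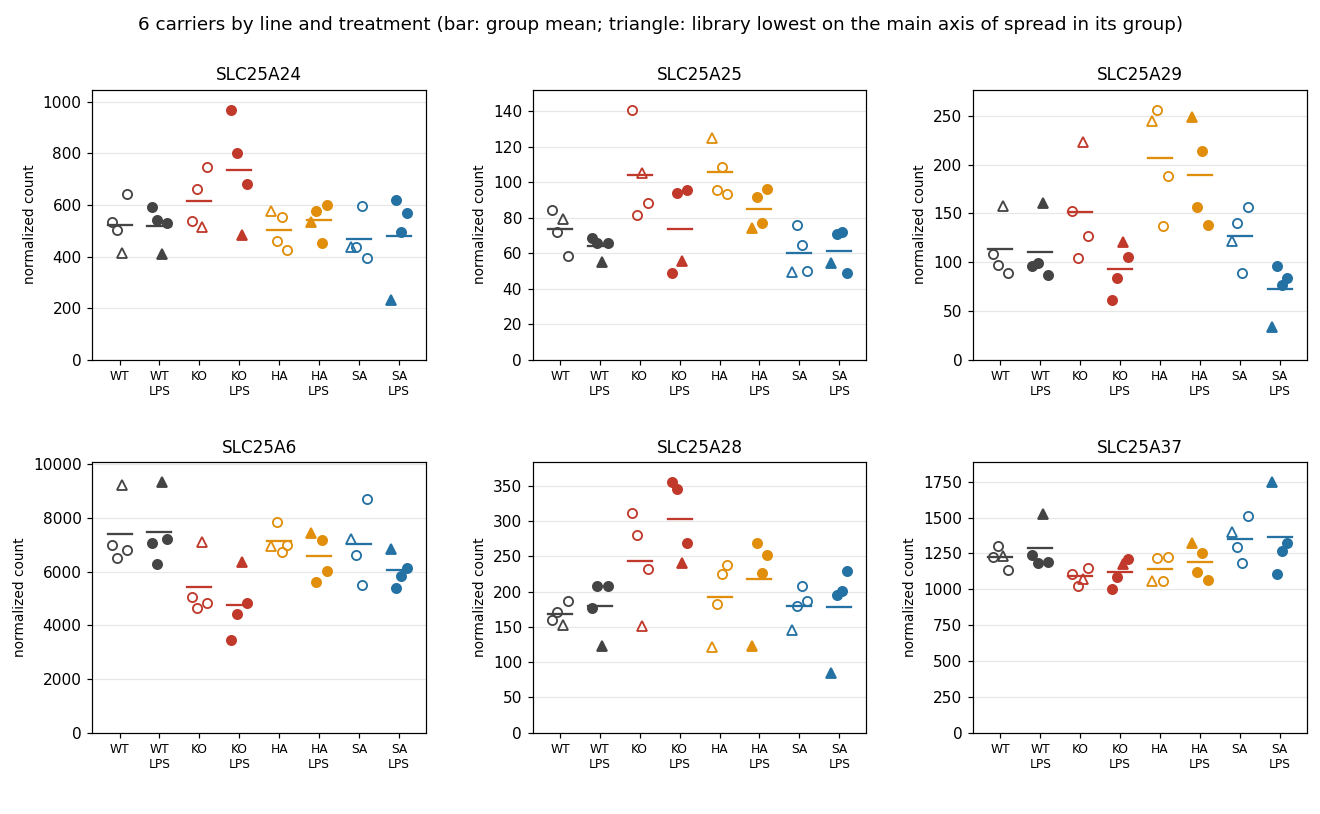
Normalized counts of 6 carriers in each library, by line and treatment (filled symbols, LPS). Horizontal bars are group means and triangles mark the library of each group that lies lowest on the main axis of spread. SLC25A24 is highest in KO, SLC25A29 is highest in HA, and SLC25A6 is lowest in KO.

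SLC25A6, the most abundant carrier, had the smallest p between KO and WT cells after LPS. SLC25A6 counts without LPS were 6975, 6509, 9235 and 6816 in WT, 5067, 4646, 7104 and 4839.7 in KO, 6951, 7849, 6714 and 6977 in HA and 7219, 6631, 5502 and 8696 in SA. After LPS, SLC25A6 counts were 7073, 6292, 9322 and 7203 in WT, 3459, 4435, 6341 and 4844 in KO, 7454, 5623, 7176 and 6018 in HA and 6842, 5404, 5819.6 and 6137 in SA. In both states 3 KO libraries lay below all WT libraries, and replicate 3 of KO, at 7104 and 6341, was within their range, while replicate 3 was also the highest WT library. Means after LPS were 4769.6 ± 1198 counts (SD, n = 4) in KO and 7473 ± 1297 in WT, a log2 fold change of -0.67 ± 0.17 (SE, limma adjusted p = 0.0152, 95% interval -1.02 to -0.31). Without LPS it was -0.45 ± 0.17 (limma adjusted p = 0.164). HA cells, which also lack ACLY activity, differed from WT in SLC25A6 by -0.04 ± 0.17 and -0.18 ± 0.17, and KO differed from HA by -0.41 ± 0.17 and -0.49 ± 0.17, without and with LPS, none past the limit. Replicate numbers paired WT with KO libraries, and with the number as a block in a fit of these groups SLC25A6 passed without LPS (-0.45, adjusted p = 5.3e-03) and with LPS (-0.67, adjusted p = 5.5e-04). Of 8 fits that each left out 1 of these libraries after LPS, it passed in 1, without replicate 3 of KO (-0.81, adjusted p = 2.8e-03), and over the 8 fits the difference ran from -0.81 to -0.52 with adjusted p up to 0.101.

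Between KO and WT no carrier of 38 passed, without LPS (2.90% of all genes) or with LPS (3.47%), and 3 and 5 had p below 0.05 unadjusted. The smallest p without LPS was that of SLC25A41, a low ATP-magnesium and phosphate carrier with 24.3, 23.4, 23.5 and 18.4 counts in WT and 2.56, 8.47, 9.46 and 8.28 in KO, at -1.62 ± 0.60 (SE, limma adjusted p = 0.143). Its groups did not overlap, which held for 1 carrier of 38 and for 12.0% of all genes, and after LPS for 3 carriers, among them SLC25A28 (higher) and SLC25A38 (lower), and for 13.9% of genes. With the replicate number as a block, 1 carrier passed without LPS and 4 with LPS, while calls among all genes came to 724 (5.84%) and 1336 (10.8%). The 4 were SLC25A6, SLC25A28 (0.77, adjusted p = 2.3e-03), SLC25A39, a glutathione carrier (-0.42, adjusted p = 6.9e-03), and SLC25A24, an ATP-magnesium and phosphate carrier (0.47, adjusted p = 9.2e-03).

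SLC25A24 and SLC25A39 lead their roles in level. SLC25A24 counts without LPS were 535, 505, 412 and 641 in WT, 539, 664, 516 and 746 in KO, 576, 459.9, 554 and 424 in HA and 437, 438, 595 and 395 in SA. After LPS, SLC25A24 counts were 594, 541, 410.4 and 529 in WT, 970.2, 803, 484 and 679.7 in KO, 535, 579, 454 and 600.04 in HA and 230.4, 621, 493 and 569 in SA. KO had the highest mean of SLC25A24 in both states, 616 ± 108 counts (SD, n = 4) and 734 ± 205 after LPS, and overlapped WT. SLC25A39 counts without LPS were 938, 976, 1148 and 1103 in WT, 759, 793, 1365 and 824 in KO, 1424, 1393, 941 and 1123 in HA and 1226, 1051, 899 and 1574 in SA. After LPS, SLC25A39 counts were 1043, 951, 1522 and 1135 in WT, 722, 769.5, 1057 and 901 in KO, 1365, 977, 992 and 900.1 in HA and 996, 831, 898 and 1049 in SA. KO replicate 3 without LPS, at 1365, lay far above the other KO libraries.

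In HA against WT no carrier of 38 passed, without LPS (2.52% of all genes) or with LPS (2.02%), and 6 and 2 had p below 0.05 unadjusted. The smallest p without LPS belonged to SLC25A29 (limma adjusted p = 0.0898). After LPS groups did not overlap for 3 carriers, among them SLC25A25 (higher) and SLC25A17 (lower), and for 13.5% of genes. Without LPS they did not overlap for 6 carriers, or 15.8% against 17.6% of all genes. Of these, SLC25A25 and the UCP-like SLC25A14 were higher in HA, and SLC25A17, SLC25A22, SLC25A33 and SLC25A40 were lower. HA lay lower than WT on the main axis of spread (mean position -28.7 against 13.9). With that axis, deviations of SLC25A22, SLC25A33, SLC25A40 and SLC25A14 have r of 0.89, 0.79, 0.83 and -0.78, and those of SLC25A17 and SLC25A25 have 0.39 and 0.24. The part of the axis in these gaps was not tested. SLC25A14 counts without LPS were 102, 123, 96.3 and 113 in WT, 117, 77.3, 150.01 and 95.7 in KO, 144, 153, 133 and 145 in HA and 143, 104, 83.02 and 108 in SA. After LPS, SLC25A14 counts were 114, 91.9, 175 and 85.6 in WT, 84.2, 65.4, 112 and 99.5 in KO, 136, 117, 118 and 133 in HA and 272, 114, 107 and 117 in SA. HA counts of SLC25A14 were above all WT counts without LPS, 133 to 153 against 96.3 to 123.

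SLC25A5, the other abundant ADP/ATP carrier, and the phosphate carrier SLC25A3 had wide intervals in HA. SLC25A5 differed by -2.03 ± 1.18 (SE) between unstimulated HA and WT, with 163, 298, 926 and 1149.8 counts in HA and 2783, 2737, 743 and 2561 in WT, and SLC25A3 by -1.04 ± 0.54, with 1139.7, 1491, 2238 and 2842 and 4519, 4709, 2115 and 4260.2. Replicate 3 of WT overlapped HA in both genes, and neither passed (limma adjusted p = 0.284 and 0.233). In a fit chosen after seeing the data, with the 8 libraries lowest on the main axis of spread left out, 5 carriers passed, while 17.6% of all genes did. They were SLC25A5 (-1.98, adjusted p = 5.2e-04), SLC25A3 (-1.08, adjusted p = 4.9e-04), the aspartate-glutamate carrier SLC25A12 (-1.30), SLC25A44 (-0.60) and SLC25A29 (0.93). Deviations of SLC25A5, SLC25A3, SLC25A12 and SLC25A44 have r of 0.99, 0.99, 0.91 and 0.93 with that axis, so leaving out its lowest libraries narrows their spread. Their p-values in that fit cannot tell a difference of these genes from one along the axis. HA libraries had 15123 to 17642 genes detected against 16334 to 18005 in WT and lay lower on that axis on average. The unstimulated HA libraries kept lay at -46.2, -14.6 and 3.01 on it, all below the WT libraries kept, at 28.7, 28.3 and 26.5. How far this moves SLC25A5 and SLC25A3 in HA was not tested.

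SA cells, whose ACLY lacks the phosphorylated serine, differed from WT in no gene of 12406 past the limit, 0% in both states, and so in no carrier. Unadjusted, 1 carrier without and 4 with LPS had p below 0.05, and the smallest p after LPS belonged to SLC25A38 (-1.18 ± 0.47, SE, limma adjusted p = 0.825). SLC25A38 counts after LPS were 115, 123, 98.5 and 116 in WT and 8.10, 91.8, 82.4 and 88.9 in SA, and without SA replicate 1 the difference was -0.36. Groups did not overlap for 1 carrier without LPS, SLC25A40 (4.22% of genes), and for 3 with LPS, SLC25A38, SLC25A35 and SLC25A36 (2.61% of genes). At its 3' end SLC25A35 overlaps RANGRF on the other strand, which had 212 counts on average.

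Between KO and HA, the lines without activity, no carrier of 38 passed without LPS (0.226% of all genes) or with LPS (0.00806%), with 4 and 3 below an unadjusted p of 0.05. SLC25A4 had the smallest p without LPS, with 57.7, 68.8, 50.003 and 34.04 counts in KO and 2.03, 21.6, 33.02 and 32.6 in HA and a difference of 1.64 ± 0.57 (SE, limma adjusted p = 0.301). Over 8 fits that each left out 1 library, this difference ran from 0.82 to 1.98, and none passed. SLC25A4 was the carrier whose groups did not overlap, where 4.98% of genes had such a gap, and the SLC25A4 counts in KO after LPS, 55.7, 70.2, 17.3 and 30.5, overlapped those in HA. Without the 8 lowest libraries of the axis, a fit chosen after seeing the data, 4 carriers passed between unstimulated KO and HA. They were SLC25A5 (1.88), SLC25A3 (0.86), SLC25A40 (0.73) and SLC25A6 (-0.56), with 8.18% of all genes called in that fit. Their deviations have r of 0.99, 0.99, 0.83 and -0.73 with the axis, so leaving out its lowest libraries narrows their spread. The unstimulated KO libraries kept lay at 21.9, 37.4 and 17.7 on the axis, all above the HA libraries kept, at -46.2, -14.6 and 3.01. The p-values of that fit thus cannot tell a difference of these genes from one along the axis.

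The carriers leading the other roles did not pass in any comparison. SLC25A11 exchanges oxoglutarate for malate in the malate-aspartate shuttle. SLC25A11 counts without LPS were 484, 504, 715 and 433 in WT, 605, 431, 1115 and 499 in KO, 917, 757, 629.8 and 564 in HA and 745, 559.7, 464 and 690.4 in SA. After LPS, SLC25A11 counts were 429, 468, 786 and 549 in WT, 292, 377, 685 and 475 in KO, 1078, 477, 558 and 453 in HA and 1243, 448, 567 and 475 in SA. The highest SLC25A11 library was replicate 1 of SA after LPS. SLC25A13 exchanges aspartate for glutamate in the same shuttle. SLC25A13 counts without LPS were 140.3, 111, 181 and 133 in WT, 136, 159.8, 193 and 158 in KO, 159.6, 155, 169.8 and 153 in HA and 116, 168, 189 and 133 in SA. After LPS, SLC25A13 counts were 160.1, 144, 178 and 153 in WT, 159, 140.3, 167 and 173 in KO, 197, 195, 266 and 151 in HA and 109.98, 158, 154 and 136 in SA. SLC25A13 was lowest in SA after LPS and highest in HA after LPS, at 266.4 counts in replicate 3. SLC25A44 brings branched-chain amino acids into the matrix. SLC25A44 counts without LPS were 876, 927, 507 and 822 in WT, 839.9, 1000.3, 193 and 728 in KO, 355, 454, 552 and 768 in HA and 459.8, 730.3, 715 and 661 in SA. After LPS, SLC25A44 counts were 923, 941, 428 and 809 in WT, 872, 972, 462 and 802 in KO, 404, 741, 658 and 815 in HA and 307, 739, 842 and 825 in SA. Replicate 3 of KO without LPS was lowest, at 193. SLC25A20 brings acylcarnitines in for fatty acid oxidation. SLC25A20 counts without LPS were 100.2, 99.6, 109 and 86.6 in WT, 106, 102, 94.6 and 79.1 in KO, 48.8, 86.2, 131 and 135 in HA and 91.96, 107, 113 and 137 in SA. After LPS, SLC25A20 counts were 124, 123, 124 and 113 in WT, 68.8, 117, 119 and 112 in KO, 95.1, 119.98, 96.1 and 108 in HA and 27.8, 97.6, 125 and 99.2 in SA. Its lowest value was 27.8 in replicate 1 of SA after LPS.

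SLC25A32 carries folate and lies among the steadiest members. SLC25A32 counts without LPS were 626, 620.4, 655 and 539.96 in WT, 585, 646, 639 and 505 in KO, 574, 780.1, 585 and 614 in HA and 539, 553, 526 and 639 in SA. After LPS, SLC25A32 counts were 513, 585, 651 and 557 in WT, 474, 627, 702 and 624 in KO, 686, 594, 701 and 501 in HA and 531, 669.7, 478 and 554 in SA. Its counts ran from 474 in KO after LPS to 780.1 in unstimulated HA. SLC25A46 shapes mitochondria from the outer membrane. SLC25A46 counts without LPS were 255, 295, 200.5 and 311 in WT, 279.5, 302, 154 and 226 in KO, 157, 170.1, 185 and 244 in HA and 146, 256, 272 and 149.96 in SA. After LPS, SLC25A46 counts were 275, 296, 150.1 and 266 in WT, 364, 308, 153 and 289.7 in KO, 189, 249, 154 and 235 in HA and 153, 309, 238 and 234 in SA. SLC25A46 was highest in replicate 1 of KO after LPS, at 364. SLC25A43 is among the less studied members. SLC25A43 counts without LPS were 80.2, 83.7, 103 and 63.9 in WT, 69.2, 89.98, 75.7 and 56.1 in KO, 83.4, 74.3, 79.02 and 50.3 in HA and 76.3, 59.8, 71.5 and 32.1 in SA. After LPS, SLC25A43 counts were 86.8, 84.97, 63.3 and 49.9 in WT, 83.03, 97.5, 66.7 and 68.9 in KO, 68.4, 59.6, 47.5 and 51.4 in HA and 24.3, 71.3, 54.6 and 58.997 in SA. SLC25A43 was lowest in replicate 1 of SA after LPS, at 24.3.

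Some carriers varied more between libraries of the same group than between group means. SLC25A5 counts without LPS were 2783, 2737, 743 and 2561 in WT, 2558, 3316, 169 and 1884 in KO, 163, 298, 926 and 1149.8 in HA and 426, 1261, 2479 and 827 in SA. After LPS, SLC25A5 counts were 3045, 2739, 582 and 1973 in WT, 3102, 4495, 549 and 2751 in KO, 153, 1624, 906 and 1912 in HA and 19.7, 3101, 2339 and 2917 in SA. The lowest library of SLC25A5 was in every group the one lowest on the main axis of spread, and in replicate 1 of SA after LPS it stood far below the other replicates. Within groups SLC25A5 had an SD of 1.80 on the log2 scale, larger than in all but 67 of the 12406 genes. The median was 0.41 for carriers and 0.42 for all genes. SLC25A3 counts without LPS were 4519, 4709, 2115 and 4260.2 in WT, 3724, 4661, 888 and 3249 in KO, 1139.7, 1491, 2238 and 2842 in HA and 1934, 3873, 4469 and 2420.1 in SA. After LPS, SLC25A3 counts were 4651, 5252, 2197 and 3879.8 in WT, 3549, 4742, 1734 and 3803 in KO, 1363, 3348, 2621 and 3375 in HA and 551, 4339, 4506 and 4173 in SA. SLC25A3 was lowest in the same 8 libraries, with an SD of 0.82. SLC25A6 was highest in 6 of these 8 libraries of its groups and SLC25A11 in all 8, so the ADP/ATP carriers SLC25A5 and SLC25A6 went apart within groups (r of deviations -0.68 over 32 libraries).

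Over the 32 libraries, deviations from group means correlated with the axis score at r = 0.99 for SLC25A5, 0.99 for SLC25A3, 0.93 for SLC25A44, 0.92 for SLC25A42, 0.91 for SLC25A12, 0.90 for SLC25A28 and 0.89 for SLC25A22. On the other side stood SLC25A11 (-0.94), SLC25A10 (-0.90), SLC25A26 (-0.86), SLC25A14 (-0.78), SLC25A45 (-0.73) and SLC25A6 (-0.73). In all 12 carriers had r above 0.7 and 6 below -0.7, 18 or 47.4% of members, where 42.4% of all genes had one or the other. These values describe libraries that share preparation and depth and carry no p. Carriers with r above 0.7 had a median GC content of 42.1% in the last 500 transcript bases and those below -0.7 had 52.6%, and over all 38 the rank correlation of r with GC was -0.30, against -0.21 over 12297 genes. Transcript length had a rank correlation with r of 0.34 over the 38 carriers and -0.07 over the 12297 genes. The source of the axis was not tested. Of the carriers that passed between lines, r was 0.24 for SLC25A25 and -0.18 for SLC25A29. Without the 8 libraries, a fit chosen after seeing the data, their differences were 0.45 and 0.43, both past the limit, as were 24.7% of all genes.

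**Figure D4:**
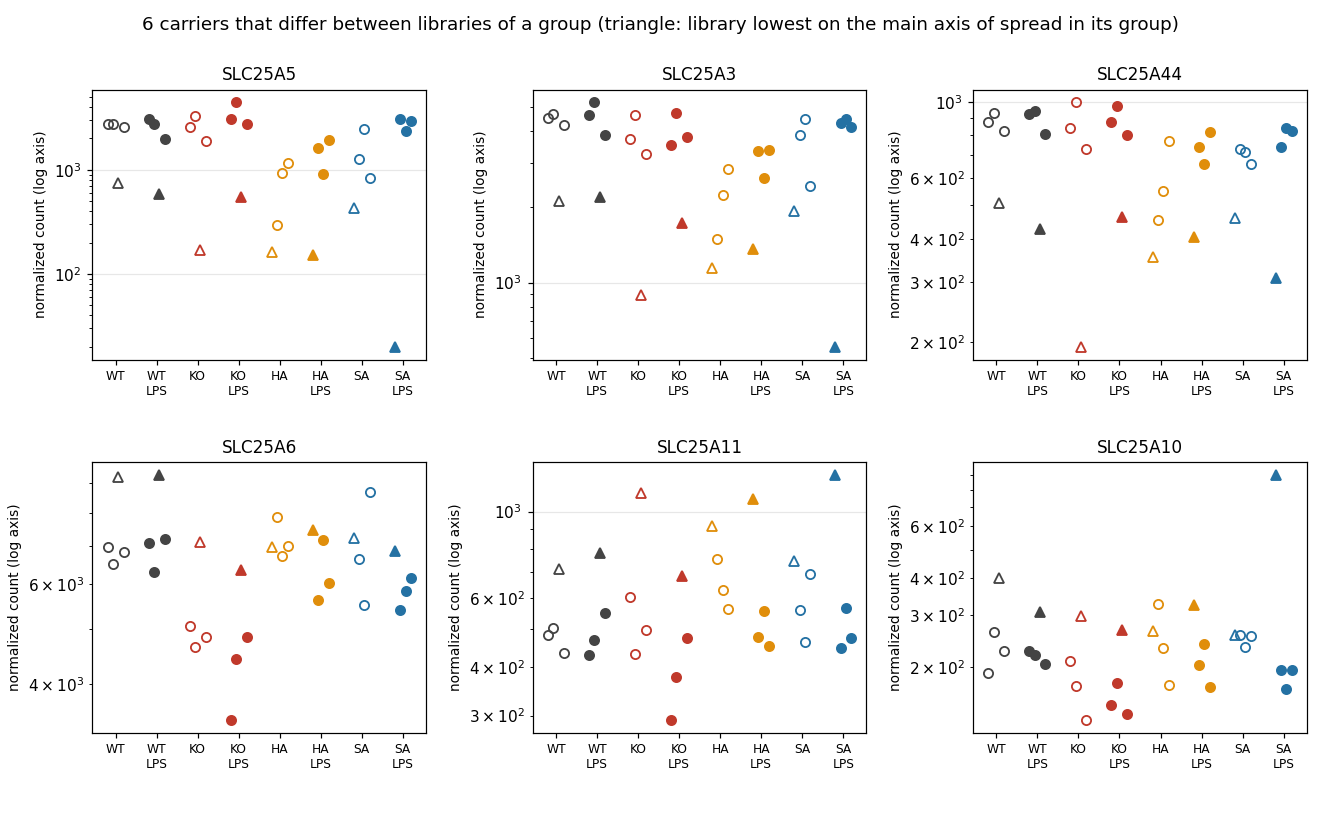
Normalized counts (log axis) of 6 carriers in each library by line and treatment (filled symbols, LPS). Triangles mark the library of each group lowest on the main axis of spread, which is the lowest library of its group for SLC25A5, SLC25A3 and SLC25A44 and the highest for SLC25A11 in all 8 groups.

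**Figure D5:**
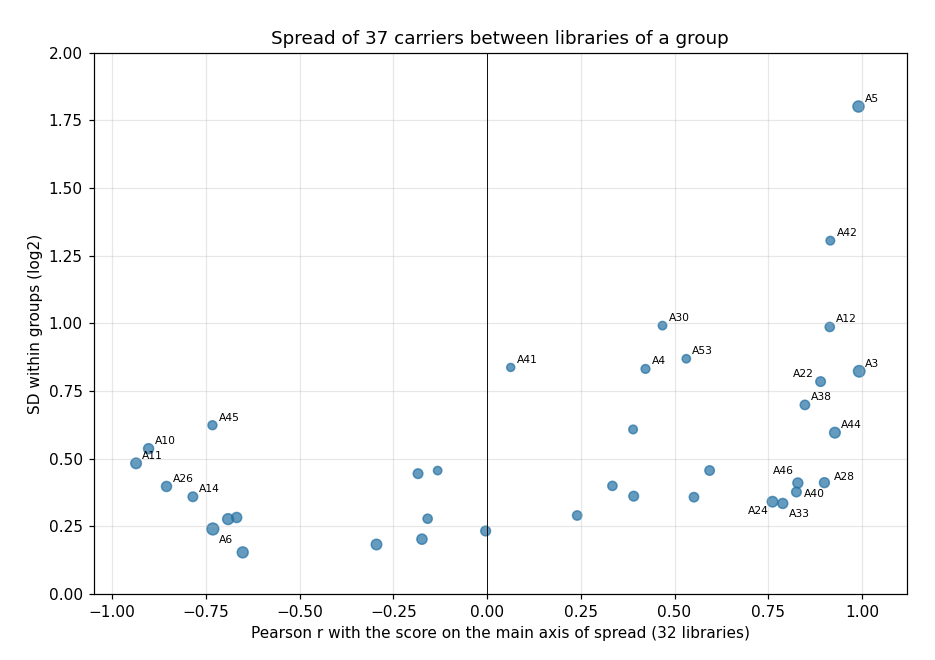
Each point is 1 of 37 carriers (labels without SLC25). The x axis is Pearson's r over 32 libraries between its deviations from group means and the score on the main axis of spread, the y axis is its SD within groups on the log2 scale, and point size grows with mean count. SLC25A5 stands at r = 0.99 and SD = 1.80, and SLC25A10 and SLC25A11 at the left edge.

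Genes around the carriers were counted by lists. For the calls below, 14.6% of all genes were called between the lines without and with activity. The share was 2.52% in HA and 2.90% in KO against WT without LPS, and 2.02% and 3.47% after LPS. Whether any list differs from these shares was not tested. Of the related carriers, 5 were tested (SLC25A1, UCP2, UCP3, MTCH1 and MTCH2) and none passed in any comparison. SLC25A1, the citrate carrier, had 678 to 2108 counts and differed by 0.62 ± 0.24 (SE) between unstimulated HA and WT (limma adjusted p = 0.112), and UCP2 by 0.48 ± 0.16 in the lines without against those with activity (adjusted p = 0.0255). Of 15 genes that import carriers, TOMM20, a receptor of the outer membrane, fell in HA without LPS (-0.64, adjusted p = 9.9e-03), and in the lines without activity TIMM10B, a chaperone of the intermembrane space, rose (0.33) and TOMM20 fell (-0.32). Of 16 other transporters, MCUB, a subunit that dampens the calcium uniporter, rose in KO without LPS from 142 ± 23.1 to 420.1 ± 99.9 counts (1.54, adjusted p = 1.5e-05), in KO after LPS (1.52, adjusted p = 1.7e-05) and in HA after LPS (1.03, adjusted p = 4.0e-03). In the lines without activity MCUB rose (1.124) and the sideroflexins SFXN5 and SFXN1, the latter a serine carrier, fell (-0.60 and -0.36), and SFXN1 also fell in HA without LPS (-0.63, adjusted p = 6.8e-03). Of 14 enzymes of the shuttles, ME1, the cytosolic malic enzyme, fell in the lines without activity (-0.38, adjusted p = 7.3e-03). Of the 13 mRNAs of the mitochondrial genome, MT-ND4L rose there (0.37, adjusted p = 6.9e-03). The other comparisons gave no call in these lists.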

How the data were processed

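RNA of THP-1 lines was made into 3' libraries with the QuantSeq kit and read on genes in the authors' pipeline, with bcl2fastq, Bbduk, STAR on GRCh38 and HTSeq-count, and DESeq2 gave size factors. Versions, annotation release and strand setting are not given in the sources used here. The deposited values are normalized counts, the reads divided by a size factor set for each line by the authors, in 60107 genes. Every value gave a whole number of reads (100% within 0.05), and these reads were put on size factors joint to all 32 libraries (median of ratios). All value columns were used (0 left out). Reads on genes ran from 6504099 to 14750815 (median 10247620) per library, and no depth or interval accounts for PCR duplicates.

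Genes with a mean of at least 10 were fitted in limma 3.58.1 (R 4.3.3) with a mean for each of 8 groups, on log2(normalized count + 1), with empirical Bayes moderation and a trend. P-values are limma's moderated test, two-sided, adjusted by Benjamini-Hochberg over 12406 genes. The fit was also run on simulated counts in which genes varied independently of each other. The libraries here share a main axis of spread, so that run does not check the calls reported. Tables and figures used Python 3.11.15, numpy 2.4.6, pandas 2.3.3, matplotlib 3.10.9 and Biopython 1.88. Samples were grouped by line and treatment as labelled. Replicate numbers paired libraries where every same-numbered pair of deviations from group means correlated above 0.1, which held for LPS in WT (r 0.263 to 0.68) and KO (0.124 to 0.675) and for KO against WT without (0.334 to 0.682) and with LPS (0.179 to 0.723). Values are given by library for carriers that passed in some comparison and for the highest of each role. Where none passed, the carrier with the smallest p is named. Of the related lists, up to 2 passing genes per direction are named. The values of SLC25A3, SLC25A5, SLC25A6, SLC25A28 and SLC25A37, where outside this rule, and markers were added after they were seen. Members, lists and roles were chosen with earlier results of these data known. The planned edgeR and DESeq2 fits and edgeR's normalization were not run, and a trimmed mean of M values and limma voom took their place. Some carrier and marker genes are not reported here by name, and the counts of carriers include them.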

Additional observations from a re-analysis of the deposited data

Results flagged for a closer look

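In 168 groups of 4 libraries (21 carriers, 8 groups), 13 held a library far from the other 3 by Dixon's test, where chance gives about 1 in 20. Replicate 1 of SA after LPS held 4 of them. It had 551 counts of SLC25A3 against 4173 to 4506 in the other replicates, 1243 of SLC25A11 against 448 to 567, 272 of SLC25A14 against 107 to 117 and 8.10 of SLC25A38 against 82.4 to 91.8. Replicate 3 of WT after LPS had 161 counts of SLC25A29 and 1525 of SLC25A37, both above the other replicates. SLC25A5 was low in replicate 3 of unstimulated WT (743), SLC25A11 was high in replicate 1 of HA after LPS (1078), and SLC25A39 was high in replicate 3 of unstimulated KO (1365). These 9 values lie in libraries that are lowest of their group on the main axis of spread. The other 4 were SLC25A20 in replicate 4 of WT after LPS (113) and in replicate 1 of KO after LPS (68.8), SLC25A38 in replicate 4 of KO after LPS (94.0) and SLC25A41 in replicate 4 of unstimulated WT (18.4).

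Of 45 pseudogenes and antisense genes named after carriers, 3 had a mean of at least 10 counts over the 32 libraries and were used in no comparison of carriers. SLC25A24P1 had 23.65, SLC25A25-AS1 had 19.82 and SLC25A5-AS1 had 16.42. Whether these are reads of the genes they are named after was not tested.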

How the results depend on the processing

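Over 17 comparisons, 405 of 425 alternative counts of carriers that passed stayed within 1.5 times those reported. Only lines without against with activity had a reported count above 0, and elsewhere a repeated 0 was taken as unchanged. In that comparison counts ran from 2 to 9, against 5.86% to 30.7% of all genes. Of 607 alternative values of 25 carrier results none changed sign, 19 lost the limit and 22 gained it. At a limit of 0.05, chosen after seeing the data, 1 carrier passed in the mean response to LPS, 2 between KO and WT after LPS and 6 between lines without and with ACLY activity, against 2.77%, 6.37% and 24.2% of all genes. With library weights, 3 passed between KO and WT without LPS, 3 after LPS, 6 between HA and WT without LPS, 1 after LPS and 9 between lines without and with activity, while all genes called came to 8.67%, 8.96%, 21.2%, 9.37% and 30.7% in the same order.

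Without the 8 libraries lowest on the main axis, also chosen after seeing the data, 1 carrier passed between KO and WT, 2 after LPS, 5 between HA and WT, 4 between KO and HA and 8 between lines without and with activity, against 4.97%, 6.997%, 17.6%, 8.18% and 24.7% of all genes. On the deposited scale 1 passed between KO and WT after LPS (SLC25A6, -0.76), with 3.83% of all genes. That scale moved the median of all genes by up to 0.27 (SA against WT after LPS). Its size factors are set within each line, and set against the joint scale they put SA 0.266 log2 above WT. Between lines without and with activity the median of all genes moved by -0.10.

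With the replicate number as a block, 1 carrier passed between KO and WT after LPS over all libraries (4.47% of all genes). In fits of the groups compared, 1 passed without LPS (5.84%) and 4 with it (10.8%). In the response of WT or KO to LPS no carrier passed with the block. Over all libraries 0.314% and 0.717% of all genes passed there, and 1.02% and 0.935% in fits of the groups compared. In comparisons with HA or SA the numbers did not pair libraries by the check, and no count of carriers changed.

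With 1 library left out in turn, 0 to 1 carriers passed in the response of SA to LPS and in the mean response to LPS. In both, 1 passed without SA replicate 3, against 0.4756% and 1.789% of all genes. Between KO and WT after LPS, 0 to 1 passed (SLC25A6, without KO LPS replicate 3, against 3.498% of all genes). Between lines without and with activity, 2 to 4 passed, against 12.98% to 20.48% of all genes. The highest share came without SA LPS replicate 1, where 3 carriers passed. The edgeR and DESeq2 fits were not run. Counts under 100 in 14 carriers, 1 line per genotype and 4 libraries per group limit what could be detected.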
